A study of Mus musculus with 9 samples.

Results

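The genes described here carry the creatine and adenylate kinase systems of energy transfer in the mouse heart around birth. They are 9 genes, *Ckm*, *Ckmt2*, *Ckb*, *Ckmt1*, *Slc6a8*, *Gatm*, *Gamt*, *Ak1* and *Ak4*, taken by symbol from the 48820 genes of the deposited table. RNA of whole hearts of untreated wild-type C57BL/6J mice was sequenced at embryonic day 18.5 (E18.5d), postnatal day 1 (P1d) and postnatal day 7 (P7d), with 3 hearts at each stage and 9 in all. No heart carried an engineered allele, and values are given as FPKM, fragments scaled by the length of the transcript and by the number of mapped fragments of the heart. In RNA of a whole organ, fewer cells of a type and less RNA per cell cannot be told apart.

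Creatine kinases pass the high-energy phosphate of ATP to creatine and back, so that phosphocreatine can buffer and carry energy between mitochondria and the sites of ATP use. *Ckm* encodes the muscle subunit of the cytosolic enzyme and *Ckb* the brain subunit, while *Ckmt2* and *Ckmt1* encode the sarcomeric and the ubiquitous enzyme of the mitochondrial intermembrane space. Creatine is made by the products of *Gatm* and *Gamt*, mainly in kidney and liver, and is taken up by cells through the transporter encoded by *Slc6a8*. Adenylate kinases convert ADP into ATP and AMP, with *Ak1* in the cytosol and *Ak4* in the mitochondrial matrix, where its product binds nucleotides but has little enzyme activity.

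All 8 cardiomyocyte markers checked passed the filter described below, with a summed level of 19658 to 20240 FPKM at E18.5d, then 22783 to 25459 at P1d and 24214 to 25411 at P7d. Of the 8, 5 were higher and 1 was lower at P7d than at E18.5d. The mean of *Myh6* went from 3220 FPKM at E18.5d to 8318 at P7d, and that of *Tnnt2* from 4431 to 3056. Every heart was labelled male, but 4 of the 9 had 58.0 to 97.0 FPKM of *Xist*, the RNA that coats the inactive X chromosome of females, and had 4 Y-linked genes at 0. These were E18.5d replicates 1 and 3 and P7d replicates 2 and 3, and the other 5 hearts had at most 0.11 FPKM of *Xist*. The results were therefore also computed with a term for *Xist* above 1 FPKM. The spacing of low FPKM values gave 25500000 to 44500000 fragments per heart, with 288 to 328 bases taken off the length of each transcript. At these depths 3 fragments on a transcript with 1 kilobase left after that are worth 0.0674 to 0.118 FPKM, and more on 1 kilobase in all. The sum of 4 endothelial markers went from 270 to 303 FPKM at E18.5d to 308 to 330 at P1d and 374 to 391 at P7d, with 3 of the 4 higher at P7d than at E18.5d. For 4 fibroblast markers the sums were 507 to 515, 408 to 565 and 692 to 710 FPKM, with 2 of the 4 higher, and for 7 red blood cell markers 8420 to 22749, 12736 to 24732 and 8552 to 10411 FPKM. The part of these cells in the results was not tested. Each of the 9 genes passed the filter of a mean of at least 1 FPKM, as did 13618 genes in all.

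The 250 bases upstream of the annotated start are shown for the 3 creatine kinases with the most RNA and for *Ak4*, whose RNA changed most among the adenylate kinases. They are RefSeq sequences of GRCm38.p6, read on the strand of the gene, and 8 of the 9 genes had such a window. For *Ckm* the window is chr7:19410844-19411093 on the plus strand, for *Ckmt2* chr13:91876886-91877135 on the minus strand, for *Ckb* chr12:111672339-111672588 on the minus strand, and for *Ak4* chr4:101419039-101419288 on the plus strand, the first of its 4 annotated starts. Capitals mark matches, on either strand, to a TATA box (TATAAA, with TATATA also counted), a CCAAT box (CCAAT), the core of a hypoxia response element (ACGTG or GCGTG), an estrogen-related receptor site (AAGGTCA) or a palindromic MEF2 form (CTANNNNTAG).
Ckm: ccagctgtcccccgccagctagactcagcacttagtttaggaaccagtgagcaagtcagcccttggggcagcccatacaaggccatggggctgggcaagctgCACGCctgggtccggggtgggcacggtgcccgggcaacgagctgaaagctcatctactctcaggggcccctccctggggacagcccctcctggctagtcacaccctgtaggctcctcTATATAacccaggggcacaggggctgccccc
Ckmt2: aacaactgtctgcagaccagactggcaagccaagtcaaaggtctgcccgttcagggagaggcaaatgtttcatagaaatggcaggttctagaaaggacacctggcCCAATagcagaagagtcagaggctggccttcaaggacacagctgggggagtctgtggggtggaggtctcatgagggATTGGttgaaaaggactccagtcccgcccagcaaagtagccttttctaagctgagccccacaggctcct
Ckb: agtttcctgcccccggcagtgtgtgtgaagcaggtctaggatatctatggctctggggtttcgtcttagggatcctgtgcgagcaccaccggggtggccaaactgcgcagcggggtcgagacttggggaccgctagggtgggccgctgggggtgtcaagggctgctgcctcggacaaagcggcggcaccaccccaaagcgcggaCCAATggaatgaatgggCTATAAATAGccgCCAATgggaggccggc
Ak4: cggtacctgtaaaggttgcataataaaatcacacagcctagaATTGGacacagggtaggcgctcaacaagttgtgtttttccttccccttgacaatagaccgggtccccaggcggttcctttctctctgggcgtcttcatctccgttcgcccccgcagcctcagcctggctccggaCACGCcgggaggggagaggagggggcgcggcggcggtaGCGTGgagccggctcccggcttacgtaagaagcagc

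The *Ckm* window held TATATA at positions -31 to -26 from the start and 1 hypoxia response element core at -148 to -144, and the *Ckb* window held TATAAA at -28 to -23, inside its match to the MEF2 form at -29 to -20. A TATA box of these letters was in 15.3% of 32536 distinct promoter windows of this length, and the MEF2 form was in 3.22%. The *Ckmt2* window had neither of these motifs. It held 2 CCAAT boxes, as did the *Ckb* window, and 4 E-boxes (CANNTG, left in lower case), of which the *Ckm* window held 1. At least 1 CCAAT box was in 33.8% of the windows and at least 1 E-box in 66.2%. The first *Ak4* window held 2 hypoxia response element cores and 1 CCAAT box, and that core was in 38.8% of the windows. An estrogen-related receptor site, in 4.09% of the windows, was in none of the 4 sequences shown. These are matches of letters only, and no binding was measured.

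The first question was how the creatine kinase isozymes differ before and after birth. *Ckm* (ENSMUSG00000030399.2, chr7:19404776-19422841 on the plus strand of GRCm38) had by far the most RNA of the 9 genes. Its level was 1876, 1852 and 1882 FPKM in the 3 hearts at E18.5d, 1666, 1591 and 1536 at P1d, and 1490, 1584 and 1508 at P7d. All E18.5d hearts were above all later hearts, and the P1d and P7d hearts overlapped. *Ckm* was lower than at E18.5d by 0.23 at P1d and by 0.29 at P7d in the log2 of FPKM + 1 (log2 changes of -0.23 and -0.29, SE 0.06 each, limma adjusted p = 0.0118 and 0.00311). From P1d to P7d the change was -0.06, with a 95% interval of -0.20 to 0.07 (adjusted p = 0.407), and its sign turned under each of 4 other scalings of the columns, to between 0.05 and 0.28, the last of these, after quantile normalization, with an adjusted p of 0.00558. Among the 13618 genes tested, *Ckm* ranked 40 by level at E18.5d, then 60 at P1d and 44 at P7d. The fall at P7d did not pass the threshold after scaling by the median of ratios (log2 change -0.11, adjusted p = 0.191), by the sum of protein-coding nuclear genes (-0.12, adjusted p = 0.126) or by quantiles (-0.14, adjusted p = 0.103). The median log2 change of all genes tested was -0.17 in the deposited values and -0.02 after the median of ratios. At P1d the call was lost with the median of ratios (-0.16, adjusted p = 0.0696) and with the *Xist* term (-0.20, adjusted p = 0.0883). An antisense gene, *A930016O22Rik*, overlaps *Ckm* and had 1.56 to 1.72 FPKM at E18.5d and 0.17 to 0.39 FPKM later, and whether reads were counted by strand is not stated. The RNA of skeletal muscle, where *Ckm* is also abundant, was scarce. The 12 markers of that tissue summed to 15.9 to 21.5 FPKM at E18.5d, then 11.2 to 12.3 at P1d and 6.69 to 7.56 at P7d, 7 of them were under 1 FPKM in every heart, and *Pax7* was at 0. Of the 4 that passed the filter, 3 were lower at P1d and 4 at P7d than at E18.5d, and 0 were higher. The part of that tissue in the level of *Ckm* was not tested.

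*Ckmt2* (ENSMUSG00000021622.3, chr13:91853387-91876885, minus strand) rose at each step. It had 92.8, 94.7 and 82.2 FPKM in the hearts at E18.5d, 131, 135 and 118 at P1d, and 304, 298 and 281 at P7d. The 3 stages did not overlap, and the mean rose from 89.9 ± 6.74 to 128 ± 8.76 and then to 294 ± 11.9 FPKM (SD, n = 3). The log2 change was 0.51 from E18.5d to P1d (SE 0.07, limma adjusted p = 0.000504), 1.19 from P1d to P7d (adjusted p = 9.3e-06) and 1.70 over the whole interval (adjusted p = 3.94e-07), a ratio of means of 3.28. From E18.5d to P7d, 73 of the 13618 genes tested, or 0.536%, had a log2 change this high or higher, *Ckmt2* included. The rise passed the threshold in all 3 comparisons under each of the 20 alternative settings. The antisense gene that overlaps *Ckmt2*, *1700119I11Rik*, was at 0 in every heart.

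*Ckb* (ENSMUSG00000001270.8, chr12:111669361-111672338, minus strand) moved the other way, and did so by the first day after birth. The hearts had 99.3, 96.5 and 91.5 FPKM at E18.5d, 48.5, 54.8 and 48.7 at P1d, and 56.1, 58.5 and 56.0 at P7d. All later hearts were far below those of E18.5d, and those of P7d were a little above those of P1d. The log2 change from E18.5d was -0.91 at P1d (SE 0.06, limma adjusted p = 7.79e-06) and -0.74 at P7d (adjusted p = 2.09e-05), and both calls held under all 20 alternatives. The step from P1d to P7d, 0.17 with a 95% interval of 0.02 to 0.31, missed the threshold (adjusted p = 0.0576), but passed it under the 4 other scalings and without P1d replicate 2. The annotated pseudogenes *Ckb-ps1* and *Ckb-ps2* were at 0 in every heart. *Ckb* is also expressed in smooth muscle and in neurons and glia. The summed level of 6 smooth muscle markers was 746 to 923 FPKM at E18.5d, then 721 to 825 at P1d and 609 to 722 at P7d, with 2 of the 6 lower at P1d and 4 lower and 1 higher at P7d than at E18.5d. For 8 markers of neurons and glia it was 7.46 to 14.3 FPKM, 6.66 to 10.0 FPKM and 5.33 to 6.72 FPKM, with 3 of the 8 past the filter and *Snap25*, *Elavl4*, *Sox10* and *Gfap* under 1 FPKM in every heart. Their part in the level of *Ckb* was not tested.

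*Ckmt1* (ENSMUSG00000000308.14, chr2:121357714-121363737, plus strand), the ubiquitous mitochondrial isozyme, was near the detection filter. It had 2.72, 1.05 and 1.80 FPKM at E18.5d, 0.76, 1.03 and 1.21 at P1d, and 0.42, 0.90 and 0.82 at P7d. The E18.5d hearts spread widely, the P7d hearts all lay below them, and the P1d hearts overlapped both. The log2 change from E18.5d to P7d was -0.71 (SE 0.22, limma adjusted p = 0.0220). The call depended on single hearts, with an adjusted p of 0.0734 without E18.5d replicate 1, 0.0555 without E18.5d replicate 3 and 0.0769 without P7d replicate 1. It was also lost with quantile normalization (-0.54, adjusted p = 0.0791). At P1d the change was -0.48 (adjusted p = 0.0969), and without E18.5d replicate 2 it was -0.70 with an adjusted p of 0.0215.

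**Figure D1:**
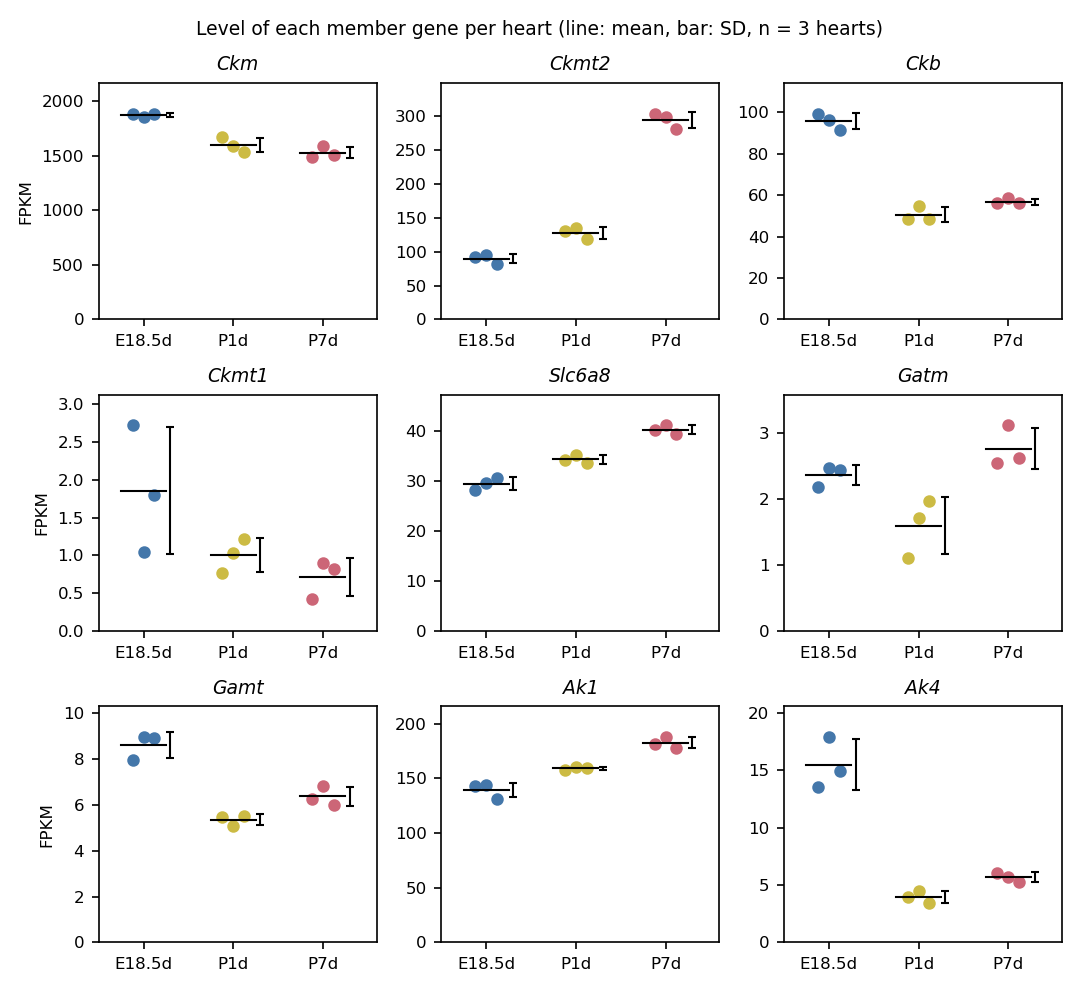
Level of each of the 9 genes in FPKM (vertical axes, from 0, scaled per gene) at the 3 stages, with 1 point per heart, a line at the mean and a bar for the SD of 3 hearts. *Ckmt2*, *Slc6a8* and *Ak1* climb from stage to stage without overlap, while *Ckm*, *Ckb*, *Gamt* and *Ak4* are higher in every E18.5d heart than in any later heart.

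Levels per length can be summed, so the make-up of the creatine kinase RNA was described in each heart. The 4 genes together had 2057 ± 13.3 FPKM at E18.5d, then 1778 ± 71.4 at P1d and 1879 ± 54.4 at P7d (SD, n = 3). *Ckm* made up 90.9% ± 0.506 of this at E18.5d, then 89.9% ± 0.524 at P1d and 81.3% ± 0.645 at P7d. *Ckmt2* made up 4.37% ± 0.333, 7.21% ± 0.335 and 15.7% ± 0.654 at the same stages, and *Ckb* 4.65% ± 0.184, 2.85% ± 0.225 and 3.03% ± 0.0118. *Ckmt1* never exceeded 0.131% in a heart. At E18.5d the shares of *Ckmt2* and *Ckb* thus lay within 1 percentage point of each other, with *Ckb* the higher in every heart. At P1d and at P7d *Ckmt2* was the second isozyme in every heart.

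The balance of isozymes was compared through ratios of 2 genes within each heart, which, apart from the 0.1 FPKM added to both genes, do not change when a heart's column is multiplied by a factor. The mitochondrial to cytosolic muscle ratio, *Ckmt2*/*Ckm*, was 0.0480 at E18.5d, then 0.0803 at P1d and 0.193 at P7d as geometric means of 3 hearts, 4.02-fold higher at P7d than at E18.5d. *Ckm*/*Ckb* went from 19.5 to 31.5 and then to 26.8. Its fall after P1d rests on a scaling by factors, since after quantile normalization *Ckm* and *Ckb* had log2 changes of 0.28 and 0.29 from P1d to P7d. *Ckmt2*/*Ckmt1* went from 49.0 to 118 and 376, a 7.69-fold difference between the first and the last stage, with single hearts from 32.9 to 82.4 at E18.5d and from 299 to 585 at P7d. In an exact permutation test of each of these ratios over all 1680 assignments of the 9 hearts to 3 stages, p was 0.00357, the smallest that this test can give, and 0.00429 after Benjamini-Hochberg adjustment over the 6 ratios tested. The hearts of any 2 stages did not overlap in these 3 ratios, although 3 hearts against 3 cannot give an exact p below 0.1.

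**Figure D2:**
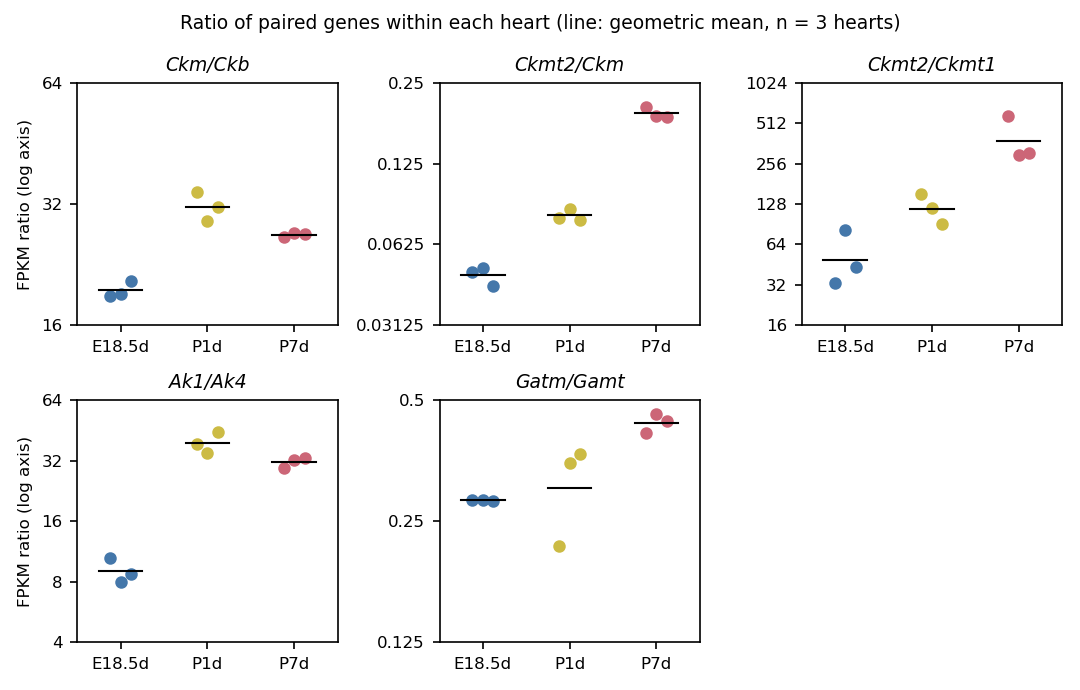
Ratio of the FPKM of 2 genes within each heart (vertical axes, log scale) at the 3 stages, with 1 point per heart and a line at the geometric mean of 3 hearts. *Ckmt2*/*Ckm* and *Ckmt2*/*Ckmt1* rise at both steps, *Ckm*/*Ckb* and *Ak1*/*Ak4* peak at P1d, and only *Gatm*/*Gamt* overlaps between E18.5d and P1d.

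Uptake and synthesis of creatine were examined next. The transporter gene *Slc6a8* (ENSMUSG00000019558.14, chrX:73673150-73682502, plus strand) had 28.2, 29.7 and 30.6 FPKM at E18.5d, 34.3, 35.2 and 33.5 at P1d, and 40.2, 41.2 and 39.4 at P7d. The stages did not overlap, and the hearts with *Xist* lay among the others of their stage although the gene is on the X chromosome. The log2 change was 0.21 at the first step (SE 0.05, limma adjusted p = 0.00967), 0.22 at the second (adjusted p = 0.00820) and 0.44 from E18.5d to P7d (adjusted p = 0.000173). The first step lost its call when the columns were scaled to an equal sum (0.04, adjusted p = 0.737) and with the *Xist* term (0.21, adjusted p = 0.0558), whereas the second step and the whole interval passed under all 20 alternatives.

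*Gatm* (ENSMUSG00000027199.14, chr2:122594467-122611303, minus strand), which makes the creatine precursor guanidinoacetate, was low, with 2.18, 2.46 and 2.43 FPKM at E18.5d, 1.11, 1.71 and 1.96 at P1d, and 2.54, 3.11 and 2.61 at P7d. The P1d hearts were lowest and the P7d hearts lay above those of E18.5d. From P1d to P7d *Gatm* rose by a log2 change of 0.54 (SE 0.13, limma adjusted p = 0.00947), a call that was lost with the *Xist* term (adjusted p = 0.0527). The difference between P7d and E18.5d was 0.16 with a 95% interval of -0.14 to 0.46 (adjusted p = 0.350). The lower level at P1d than at E18.5d (-0.39, adjusted p = 0.0400) passed in only 7 of 19 alternatives, and was lost without E18.5d replicate 1, 2 or 3, P1d replicate 1 or 2, or P7d replicate 1 or 3, with adjusted p between 0.0523 and 0.118 in these. Without P1d replicate 1 the log2 change was -0.24, and in the other 6 of these fits it was -0.42 to -0.36. This call was also lost with the *Xist* term (-0.37, adjusted p = 0.139), quantile normalization (-0.29, adjusted p = 0.120) and the median of ratios (-0.34, adjusted p = 0.0711). The same held with no filter (adjusted p = 0.0874) and with only the 2 stages compared (adjusted p = 0.0709).

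*Gamt* (ENSMUSG00000020150.13, chr10:80258151-80261012, minus strand), which methylates guanidinoacetate to creatine, was lower at P1d than at E18.5d. It had 7.95, 8.96 and 8.93 FPKM at E18.5d, 5.48, 5.08 and 5.50 at P1d, and 6.27, 6.83 and 6.00 at P7d. The E18.5d hearts were highest and the P1d hearts lowest, with no overlap between stages. The log2 change from E18.5d was -0.60 at P1d (SE 0.08, limma adjusted p = 0.000250), which held under all 20 alternatives, and -0.38 at P7d (adjusted p = 0.00272), which was lost only on scaling by the sum of protein-coding nuclear genes (-0.24, adjusted p = 0.0520). The small step up from P1d to P7d (0.21, adjusted p = 0.0471) was lost in 14 of 20 alternatives, among them the fits without E18.5d replicate 2 or 3, or without any 1 of the P1d and P7d hearts, with adjusted p between 0.0559 and 0.151 in these.

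The ratio *Gatm*/*Gamt* was 0.282 at E18.5d, then 0.303 at P1d and 0.440 at P7d. Across the 3 stages the exact permutation p was 0.0571, unadjusted and adjusted, with P1d hearts spread from 0.217 to 0.368. Without P1d replicate 1, 2 or 3 the adjusted p was 0.00429, 0.0464 or 0.0286, but it stayed above 0.05 without any 1 heart of the other stages. Kidney and liver, the main sites of these enzymes, left little RNA in the hearts. Their 8 markers summed to 1.60 to 7.89 FPKM at E18.5d, then 1.37 to 30.5 at P1d and 0.73 to 1.12 at P7d, with *Umod*, *Slc34a1* and *Slc12a1* at 0 throughout and *Alb* reaching 15.9 FPKM in 1 heart. The 5 markers of brown fat, a tissue that lies near the heart and also uses creatine, summed to 6.13 to 7.77 FPKM at E18.5d, then 25.9 to 26.3 at P1d and 33.6 to 38.9 at P7d. Most of each sum was *Cidea*, with means of 6.71, 22.3 and 26.7 FPKM at the 3 stages. *Ucp1* had means of 0, 0.453 and 6.62 FPKM, *Adipoq* 0.267, 2.37 and 0.947 FPKM, and *Elovl3* at most 0.06 FPKM in any heart. Of the 5, 3 passed the filter and all 3 were higher at P7d than at E18.5d, but from P1d to P7d 1 was higher and 1 lower. The part of these tissues in the levels of *Gatm*, *Gamt* and *Slc6a8* was not tested.

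The adenylate kinase genes parted in the same interval. *Ak1* (ENSMUSG00000026817.14, chr2:32621758-32635058, plus strand), the cytosolic enzyme of muscle, had 143, 144 and 132 FPKM at E18.5d, 158, 160 and 160 at P1d, and 181, 188 and 178 at P7d. Each stage lay above the one before it without overlap. The log2 change was 0.19 at each step (SE 0.05, limma adjusted p = 0.0150 and 0.0154) and 0.39 from E18.5d to P7d (adjusted p = 0.000343), of which only the last passed under all 20 alternatives. The first step was lost on scaling to an equal sum (0.02, adjusted p = 0.877), with the *Xist* term (adjusted p = 0.0941) and without E18.5d replicate 3 (adjusted p = 0.0509), and the second with the *Xist* term (adjusted p = 0.0558) and without P7d replicate 2 (adjusted p = 0.0556).

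*Ak4* (ENSMUSG00000028527.18, chr4:101419277-101466995, plus strand) had the largest fall of the 9 genes. It had 13.55, 17.89 and 14.96 FPKM at E18.5d, 3.99, 4.51 and 3.47 at P1d, and 6.08, 5.70 and 5.28 at P7d. The P1d hearts were lowest, the P7d hearts all lay above them, and both were far below every E18.5d heart. The mean at P1d was 0.258 of that at E18.5d. The log2 change from E18.5d was -1.72 at P1d (SE 0.11, limma adjusted p = 5.92e-06) and -1.29 at P7d (adjusted p = 2.41e-05), and 0.43 from P1d to P7d (adjusted p = 0.0133), and these 3 calls held under all 20 alternatives. At P1d, 111 of 13618 genes, or 0.815%, had a log2 change this low or lower, *Ak4* included, and at P7d 181 genes did.

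The ratio *Ak1*/*Ak4* was 9.01 at E18.5d, then 39.2 at P1d and 31.6 at P7d, 4.35-fold and 3.51-fold above the first stage. The 3-stage exact permutation p of this ratio was 0.00357, adjusted 0.00429, and no hearts of different stages overlapped.

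Seen together, 3 of the 9 genes rose from E18.5d to P7d (*Ckmt2*, *Slc6a8* and *Ak1*), 5 fell (*Ckm*, *Ckb*, *Ckmt1*, *Gamt* and *Ak4*) and *Gatm* was not called. Among all genes tested 12.5% were higher and 36.9% lower, 49.4% in all, and the hearts of these stages did not overlap for 62.5% of all genes and for each of the 9. With the median of ratios in place of the deposited scale the split of all genes moved from 1706 higher and 5025 lower to 2905 and 2848. At P1d against E18.5d the same 3 genes were higher and 5 were lower (*Ckm*, *Ckb*, *Gatm*, *Gamt* and *Ak4*), beside 18.4% and 27.6% of all genes and 46.0% in either direction, and 8 of the 9 had no overlap of hearts against 54.4% of all genes. From P1d to P7d, 6 were higher (*Ckmt2*, *Slc6a8*, *Gatm*, *Gamt*, *Ak1* and *Ak4*) and 0 lower by limma, with 0 lower also at an unadjusted p under 0.05 and under each of the 20 alternatives, while 15.5% of all genes were higher and 28.6% lower, 44.2% in all, and 7 of the 9 had no overlap against 53.6%. From P1d to P7d the split of all genes also depended on the scaling, with 2112 higher and 3901 lower as deposited and 2986 and 2700 with the median of ratios. It was 2200 and 1729 with an equal sum, 3293 and 2234 with protein-coding nuclear genes and 2879 and 2787 with quantiles. The median log2 change of the 9 genes was -0.29, -0.39 and 0.21 in these 3 comparisons, beside -0.17, -0.06 and -0.09 for all genes tested. With the *Xist* term, 1 gene was higher and 3 were lower at P1d against E18.5d, and 3 were higher from P1d to P7d. None of the P1d hearts had *Xist* above 1 FPKM, against 2 of 3 hearts at each other stage, and the part of sex in these differences was not tested beyond this term.

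**Figure D3:**
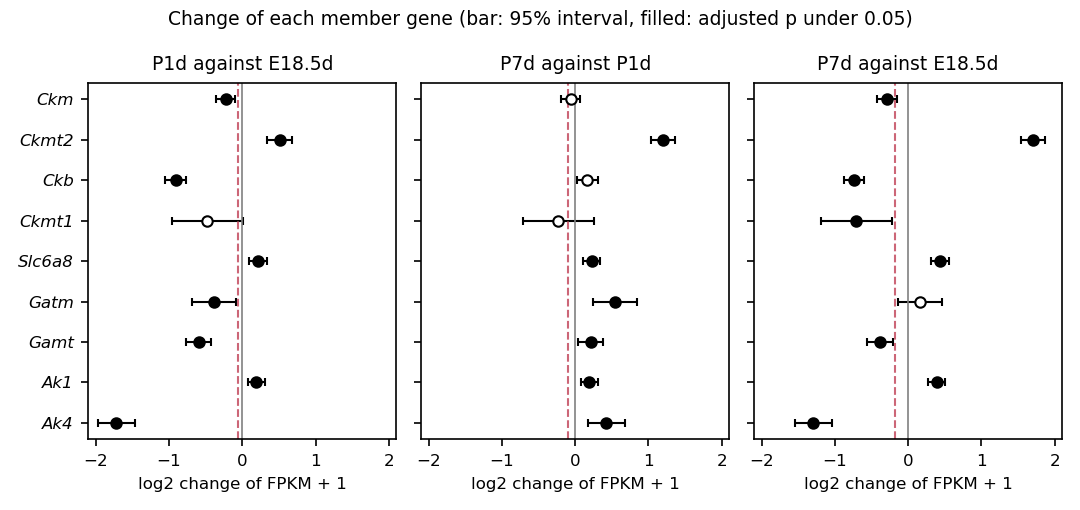
Log2 change of FPKM + 1 of each gene (horizontal axis) with its 95% interval in 3 comparisons, filled where the adjusted p was under 0.05, with the median of all 13618 genes as a dashed line. *Ak4* (-1.72) and *Ckb* (-0.91) fall furthest at P1d, *Ckmt2* (1.19) rises furthest afterwards, and no filled point lies below 0 from P1d to P7d.

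**Figure D4:**
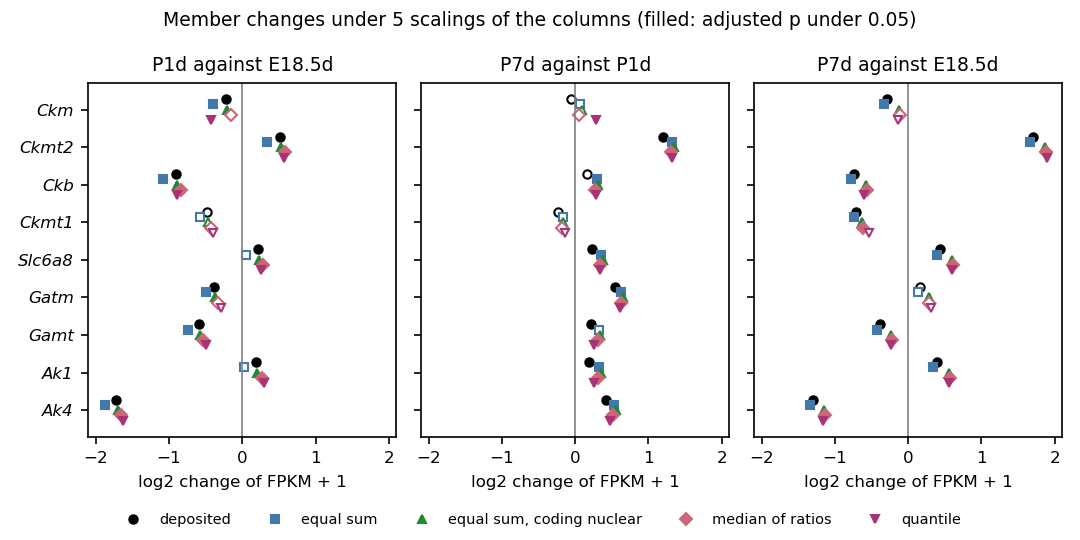
The same log2 changes (horizontal axis) with the FPKM columns as deposited or rescaled in 4 other ways, filled where the adjusted p was under 0.05. The points of *Ckmt2* and *Ak4* stay filled on 1 side of 0 in every panel, while those of *Ckm* from P1d to P7d lie on both sides.

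The genes around these enzymes were taken from 7 lists with 46 genes, of which 39 passed the filter. From E18.5d to P7d 9 of them were higher, 16 lower and 14 not called, beside 12.5% higher and 36.9% lower among all genes tested. These counts depended on the scaling, being 14 higher and 8 lower with protein-coding nuclear genes and 14 higher and 9 lower with the median of ratios or quantiles. The counts of the single lists below, on the deposited scale, are to be read beside the same shares of all genes. The M-band, where the muscle creatine kinase is anchored at the centre of the sarcomere, stood on the rising side. *Myom1*, *Myom2* and *Fhl2*, which encode 2 myomesins and an adaptor that binds metabolic enzymes there, were all 3 higher, while *Myom3* did not pass the filter. *Myom2* had 136, 141 and 122 FPKM at E18.5d, 410, 411 and 264 at P1d, and 476, 431 and 454 at P7d, with log2 changes from E18.5d of 1.41 and 1.76 (limma adjusted p = 0.000101 and 2.37e-05). *Fhl2* had log2 changes of 0.50 and 0.94, and *Myom1* of 0.40 and 0.43, that of *Myom1* at P1d being 0.23 with an adjusted p of 0.131 on scaling to an equal sum.

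Among further adenylate kinases, *Ak6* and *Ak3* were the 2 of 6 that passed the filter, and both were lower at P7d, with log2 changes of -0.60 and -0.32. The call of *Ak3* was lost with protein-coding nuclear genes (-0.15, adjusted p = 0.0885), the median of ratios (-0.14, adjusted p = 0.142) and quantiles (-0.18, adjusted p = 0.0545). *Ak6*, which encodes a nuclear enzyme, kept 65.7 ± 3.45 FPKM at P1d, beside 65.9 ± 2.48 at E18.5d, and had 43.2 ± 0.750 FPKM at P7d (SD, n = 3). By mean level *Ak1* (139 FPKM) lay above *Ak6* (65.9), *Ak3* (54.0) and *Ak4* (15.5) at E18.5d, and at P7d *Ak1* (182) lay above *Ak6* and *Ak3* (43.2 each, with overlapping hearts) and *Ak4* (5.69). The other 4, *Ak5*, *Ak7*, *Ak8* and *Ak9*, had at most 0.61 FPKM in any heart.

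Of the 7 nucleoside diphosphate kinases, which move phosphate between nucleotides, 1 was higher and 4 were lower. *Nme2* went from 266 ± 12.3 FPKM before birth to 327 ± 4.93 FPKM at P7d (log2 change 0.30, limma adjusted p = 0.00220). *Nme4*, the mitochondrial member, had 9.34 ± 0.957 and 4.37 ± 0.572 FPKM (-0.95, adjusted p = 0.000325), and *Nme1* and *Nme7* had log2 changes of -0.66 and -0.57. *Nme1* and *Nme2* are similar neighbouring paralogues, so reads could be split between them.

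Among 10 genes of AMP and purine nucleotides, 9 passed the filter, of which 3 were higher and 2 lower. *Nt5c1a*, a cytosolic nucleotidase that turns AMP into adenosine, had 5.59, 4.78 and 4.70 FPKM at E18.5d, 3.76, 2.13 and 4.24 at P1d, and 11.5, 11.5 and 10.8 at P7d. It lay lowest at P1d and highest at P7d without overlap, with a log2 change of 1.52 between these (limma adjusted p = 0.000140) and 1.03 from E18.5d to P7d (adjusted p = 0.000881). *Ampd3*, an AMP deaminase, rose by 0.64, and *Adssl1*, the muscle form of adenylosuccinate synthase, by 0.30, while its paralogue *Adss* and adenosine kinase *Adk* had -0.38 and -0.22. *Adk* lost its call under the 4 other scalings, with log2 changes of -0.27 to -0.044, and without any 1 of the E18.5d hearts or P7d replicate 3 (range of adjusted p, 0.0554 to 0.0820).

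At the mitochondrial membranes, 2 of 6 genes were lower from E18.5d to P7d and 0 were higher by limma, also at an unadjusted p under 0.05, whereas *Slc25a4*, *Slc25a3* and *Vdac1*, 3 genes named after their values were seen, were called higher with protein-coding nuclear genes, the median of ratios and quantiles. *Slc25a5*, the ADP/ATP carrier of many tissues, had 404 ± 21.7 FPKM at E18.5d, then 386 ± 9.61 at P1d and 273 ± 15.3 at P7d (log2 change -0.57). The channel gene *Vdac2* had a log2 change of -0.15 (adjusted p = 0.0488) that turned to 0.01, 0.03 and 0.08 on scaling by protein-coding nuclear genes, by the median of ratios and by quantiles. *Vdac2* also lost its call with an equal sum (adjusted p = 0.0927), the *Xist* term (0.0689), no filter (0.0586), a filter of 5 FPKM (0.0520) and eBayes without trend (0.0773). The call was lost as well without E18.5d replicate 1 or 2, P1d replicate 1 or any 1 of the P7d hearts (adjusted p from 0.0595 to 0.166). Of the 6 genes, 2 were higher at P1d than at E18.5d, *Slc25a4* and *Slc25a3*, beside 18.4% of all genes tested. Both were named after their values were seen. *Slc25a3* had a log2 change of 0.20 (adjusted p = 0.0291) that lost its call with an equal sum (0.026, adjusted p = 0.807), the *Xist* term (adjusted p = 0.141) or no filter (0.0516), and when E18.5d replicate 2, E18.5d replicate 3 or P1d replicate 2 was left out (adjusted p of 0.0712 to 0.0844). *Slc25a4*, the carrier of heart and muscle, had 866 FPKM at E18.5d, then 1187 at P1d and 917 at P7d on average, with log2 changes of 0.45 (adjusted p = 0.000235) and then -0.37 (adjusted p = 0.000849), the latter turned to 0.0043 with quantile normalization.

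Of the AMP-activated protein kinase, which responds to AMP, 6 of 7 subunits passed the filter. The catalytic subunit genes *Prkaa2* (log2 change -0.44) and *Prkaa1* (-0.28) and the regulatory *Prkab2* (-0.33) were called lower at P7d, and *Prkab1* higher (0.50). *Prkaa1* was lowest at P1d, with 9.65 ± 0.108 FPKM at E18.5d, then 6.23 ± 0.374 at P1d and 7.79 ± 0.344 at P7d (SD, n = 3), and its call at P7d was lost under 3 of the scalings, with log2 changes of -0.13 to -0.12. *Prkab2* lost its call under the same 3 scalings (-0.18 to -0.17, adjusted p from 0.148 to 0.179) and without E18.5d replicate 1 (0.0631) or P7d replicate 2 (0.0606), and *Prkaa2* with protein-coding nuclear genes (-0.28, adjusted p = 0.0554). Of 6 genes that supply precursors or methyl groups to creatine synthesis, 1 was higher and 3 were lower. *Ahcy*, which clears the product of the *Gamt* reaction, went from 29.0 ± 1.78 FPKM before birth to 17.4 ± 1.05 FPKM at P7d (-0.70), and *Ass1* and *Mat2a* had -0.59 and -0.21, while the arginine transporter *Slc7a1* had 0.20. *Mat2a* lost its call under the 4 other scalings, with log2 changes of -0.25 to -0.029, and without E18.5d replicate 1 or 2 or any 1 of the P7d hearts (adjusted p from 0.0510 to 0.0736). *Slc7a1* lost it with an equal sum (0.16, adjusted p = 0.270) and without any 1 of the E18.5d hearts or P7d replicate 2 or 3 (range of adjusted p, 0.0511 to 0.0960).

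**Figure D5:**
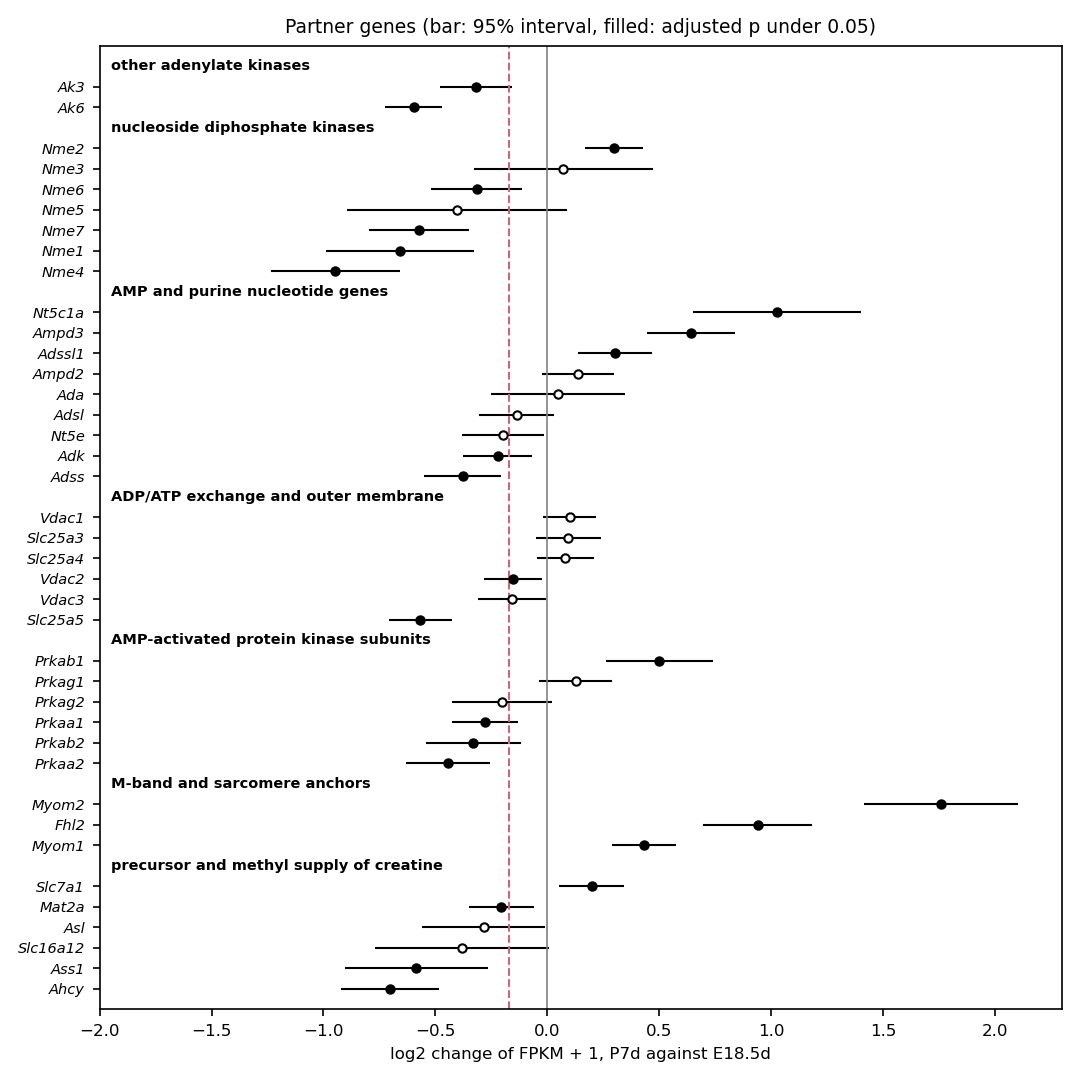
Log2 change of FPKM + 1 from E18.5d to P7d (horizontal axis) with its 95% interval for the 39 partner genes that passed the filter, grouped by list, filled where the adjusted p was under 0.05, with the median of all genes tested as a dashed line. *Myom2* (1.76) and *Nt5c1a* (1.03) lie furthest to the right and *Nme4* (-0.95) furthest to the left.

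For each of the 9 genes, the 2 genes of most similar pattern were sought among the 13617 others by Pearson's r of log2(FPKM + 1) over the 9 hearts. The hearts fall into 3 stages, so r mostly ranks genes by their stage means, and it is given as a description. *Ckmt2* was closest to *Hhatl* (r = 0.998) and *Coq10a* (0.996), *Slc6a8* to *Mreg* (0.997) and *Pstpip2* (0.988), and *Ak1* to *Etfb* (0.992) and *Epb41l4b* (0.983). *Ckb* was closest to *Ciao2b* (0.995) and *Egln3* (0.993), *Ak4* to *C2cd2* (0.991) and *Trp53rka* (0.989), *Gamt* to *Mto1* (0.986) and *Prdm15* (0.983), and *Ckm* to *Supv3l1* (0.990) and *Gm26917* (0.989). *Gatm* was closest to *Mlf1* (0.985) and *Gja3* (0.978), and *Ckmt1* to *Ass1* (0.932) and *Ercc8* (0.922), the weakest match of the 9.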

How the data were processed

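RNA of 9 mouse hearts was measured by RNA-seq, 3 each at E18.5d, P1d and P7d, grouped by the stage in their labels. The authors deposited FPKM values per gene, rounded to 2 decimals, 1 column for each heart. The submitters' processing notes name STAR and the GRCm38 (mm10) build, and the counting tool, annotation and strand setting are not given in the sources used here. Of 48820 genes, 48144 identifiers matched GENCODE M21 without their version.

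FPKM are not counts, so log2(FPKM + 1) of the 13618 genes whose mean reached 1 FPKM was fitted with limma 3.58.1 in R 4.3.3 (eBayes with trend), all stages in 1 fit, with Benjamini-Hochberg adjustment over these genes and a threshold of 0.05. Changes are on this scale and understate those of low genes. Ratios within hearts, with 0.1 FPKM added to both genes, were compared by exact permutation tests with scipy 1.17.1 (Python 3.11.15, pandas 2.3.3, numpy 2.4.6). Shares and correlations are descriptions. Figures were drawn with matplotlib 3.10.9. The scripts were tested on simulated data. Depth was read from FPKM steps, of which 90.0% to 94.0% of the low values used were whole fragments within 0.1 fragments in each heart.

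The 9 genes, the partner and marker lists and the tests were chosen with earlier results of these data known. All 9 genes are named, and 1 of the genes chosen beside them, with 1 of the 6 ratios, is not reported here. In each partner list up to 3 genes in each direction with the largest log2 change from E18.5d to P7d are named, among those past the threshold without overlap of hearts, and for each of the 9 genes the 2 of most similar pattern. The alternatives were other pseudocounts, filters and scalings of the columns, eBayes without trend, only the stages compared, the replicate number as a block, a term for *Xist* and leaving out each heart in turn. The labels call the hearts biological replicates, and litter is not among the labels used here. The limma p-values set each change against the spread of hearts within stages, pooled over the 3 stages and moderated across genes.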

Additional observations from a re-analysis of the deposited data

How the results depend on the processing

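The log2 changes of the 9 genes were recomputed under 534 combinations of gene, comparison and alternative, of which 480 kept their direction and their side of the threshold. *Ckmt2* and *Ak4* did so in all 3 comparisons, *Ckb* against E18.5d, *Slc6a8* and *Ak1* from E18.5d to P7d, *Slc6a8* also from P1d to P7d, and *Gamt* at P1d. *Gatm* from E18.5d to P7d and *Ckmt1* from P1d to P7d, not called, also stayed so in all 19 alternatives. The number of genes lower at P7d than at E18.5d went from 5 to 3 on scaling by protein-coding nuclear genes and by quantiles. At P1d against E18.5d, the 3 higher genes became 1 on scaling to an equal sum or with the *Xist* term, and the 5 lower genes became 3 with the median of ratios or the *Xist* term. From P1d to P7d, the 6 higher genes became 3 with the *Xist* term. *Ckm* from P1d to P7d reversed to 0.066, 0.089, 0.047 and 0.28 with an equal sum, protein-coding nuclear genes, the median of ratios and quantiles, *Vdac2* from E18.5d to P7d to 0.014, 0.028 and 0.077 under the last 3 of these, and *Slc25a4* from P1d to P7d to 0.0043 with quantiles. The cause was not tested.

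For *Gatm*/*Gamt*, a pseudocount of 1 gave log2 differences of 0.54 from E18.5d to P7d, 0.21 from E18.5d to P1d and 0.33 from P1d to P7d, with an adjusted exact permutation p of 0.0214 in place of 0.0571. Leaving out 1 heart in turn gave 0.61 to 0.69, -0.035 to 0.35 and 0.30 to 0.68 for these. The adjusted p was 0.00429, 0.0464 and 0.0286 without P1d replicate 1, 2 and 3, and stayed above 0.05 without any 1 heart of the other stages. The difference from E18.5d to P1d was -0.035 without P1d replicate 3. The cause was not tested.

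With the replicate number as a block, *Gamt* from P1d to P7d lost its call (log2 change 0.21, adjusted p = 0.0722), as did *Vdac2* (adjusted p = 0.0679) and *Slc7a1* (0.0508) from E18.5d to P7d. The genes higher from P1d to P7d then numbered 5 in place of 6, and the counts among all genes stayed within 1.5 times, at 2040 higher and 3817 lower in that comparison. Hearts of the same number deviated from their stage means with correlations of -0.05 to 0.11, so the numbers were not taken to pair them.

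Among all genes, those higher and lower from E18.5d to P7d numbered 1706 and 5025, against 2752 and 2872 with protein-coding nuclear genes, 2905 and 2848 with the median of ratios, and 2889 and 2937 with quantiles. At P1d against E18.5d the higher genes went from 2505 to 1175 with an equal sum and 1607 with the *Xist* term. From P1d to P7d the lower genes went from 3901 to 1729, 2234 and 2438 with an equal sum, protein-coding nuclear genes and the *Xist* term, and the higher genes from 2112 to 3293 with protein-coding nuclear genes. *Ckmt1* and *Gatm* were low, with 0.42 to 2.72 and 1.11 to 3.11 FPKM per heart. These levels lay above the 0.0674 to 0.118 FPKM that 3 fragments are worth on a transcript with 1 kilobase left. The part of the number of fragments in the spread of these genes was not tested.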
